A study of Mus musculus with 28 samples.

Results

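The genes described here are 38 that make, link, cut or regulate the extracellular matrix of the liver or mark the stellate cell, the main matrix-producing cell of that organ. They were chosen by name: a probe belongs to the group if the accession printed for it in the scanner files maps to the symbol of a member in RefSeq. This gave 61 probes of 41174 on the array, and 36 of the 38 genes entered the tests, which covered 20300 features in all. Lox, the lysyl oxidase that starts collagen crosslinking, and Thbs1, a matrix glycoprotein that activates latent TGF-beta, were not tested. Their probes stood well above background on 2 and 10 of the 28 arrays, and on no group's full set of 4.

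Liver RNA was measured on 28 single-colour arrays, 4 in each of 7 groups. All mice, those serving as controls included, lacked fumarylacetoacetate hydrolase (Fah), which carries out the closing step of tyrosine breakdown, and so depended on nitisinone (NTBC), a blocker of an earlier step, to avoid toxic intermediates. The groups were Fah-/- p53-/- mice with no, reduced or full NTBC (called p53-null below), Fah-/- p21-/- mice with no NTBC (p21-null), and Fah-/- mice with no, reduced or full NTBC. Their water held 7.5 mg/L NTBC at full dose. The reduced dose is given as 25% by the sample labels and as 2.5%, kept for 3 months, by the protocol, so no figure is attached to it here. The sources used here do not give the time without drug in the groups with no NTBC, the mice's age or strain, the alleles used, or whether the 4 samples of a group were 4 animals. The p-values below therefore measure only the spread between samples.

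In a resting liver the stellate cell stores vitamin A in the space between hepatocytes and the sinusoid, and a thin sheet of type IV and type XVIII collagen and laminin lies there. When hepatocytes die, TGF-beta and PDGF turn stellate cells into contractile myofibroblasts that show smooth muscle actin and lay down fibrillar collagens. Metalloproteinases, many of them from macrophages, cut this matrix, and tissue inhibitors (TIMPs) hold the proteases back, so the balance of these members shapes how much scar remains.

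Promoter sequences were found for 25 members in RefSeq's table for build GRCm38.p6, each a window of 300 bases that runs 250 before and 50 after a start site. Both type IV collagen chains are shown because their levels are compared side by side below and their start sites lie 21 bases apart on opposite strands. Capitals mark the 78 bases that both windows hold, read from each gene's own strand. Col4a1 lies at chr8:11312777-11313076 on the minus strand and Col4a2 at chr8:11312555-11312854 on the plus strand.
Col4a1: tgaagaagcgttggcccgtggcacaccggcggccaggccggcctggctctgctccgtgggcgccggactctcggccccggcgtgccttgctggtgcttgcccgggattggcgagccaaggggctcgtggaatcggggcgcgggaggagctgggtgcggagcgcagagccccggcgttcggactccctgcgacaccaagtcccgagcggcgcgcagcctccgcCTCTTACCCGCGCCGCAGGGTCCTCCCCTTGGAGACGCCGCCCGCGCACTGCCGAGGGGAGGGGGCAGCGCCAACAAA
Col4a2: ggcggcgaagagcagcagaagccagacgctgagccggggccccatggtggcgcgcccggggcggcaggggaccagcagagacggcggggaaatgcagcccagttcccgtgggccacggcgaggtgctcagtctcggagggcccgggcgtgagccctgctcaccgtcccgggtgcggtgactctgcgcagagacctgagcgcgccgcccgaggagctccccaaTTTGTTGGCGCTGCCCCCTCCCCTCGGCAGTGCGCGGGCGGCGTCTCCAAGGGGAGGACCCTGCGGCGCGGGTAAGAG

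Mmp12 and Mmp13, neighbours on chromosome 9, encode macrophage elastase and collagenase 3 and showed the widest differences between doses among the members. Their windows are shown because both hold TGANTCA, the letters to which AP-1 factors bind, within 50 bases before the start site (capitals). The match is TGAGTCA, 44 bases before the start, in the second of the windows listed for Mmp12 (chr9:7347124-7347423, plus strand), and TGACTCA, 35 bases before it, in Mmp13 (chr9:7272264-7272563, plus strand).
Mmp12: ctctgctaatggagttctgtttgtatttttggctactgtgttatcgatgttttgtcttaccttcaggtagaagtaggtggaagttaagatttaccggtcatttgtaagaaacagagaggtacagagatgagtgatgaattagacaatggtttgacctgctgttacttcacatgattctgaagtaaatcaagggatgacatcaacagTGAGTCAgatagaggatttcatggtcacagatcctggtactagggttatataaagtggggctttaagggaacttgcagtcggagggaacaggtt
Mmp13: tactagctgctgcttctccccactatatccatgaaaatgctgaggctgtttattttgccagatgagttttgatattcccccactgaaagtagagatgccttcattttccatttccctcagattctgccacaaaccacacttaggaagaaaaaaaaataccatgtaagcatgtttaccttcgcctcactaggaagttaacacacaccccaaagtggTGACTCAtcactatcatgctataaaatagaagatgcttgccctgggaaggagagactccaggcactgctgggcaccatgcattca
On either strand TGANTCA occurred in 3 of the 25 members with a window, the third being Col6a1, and in 7.81% of all 32851 windows of that length. The CArG box, to which serum response factor binds in smooth muscle genes, was searched only as CCWWWWWWGG, where W is A or T. That strict form was in 0 of 25 members and in 1.63% of all windows. Forms with another base in the core were not searched, and Tagln had no window, so the 0 does not show that a member lacks a CArG box. The 2 motifs cannot overlap each other. These matches are letters in a window and were not tested as binding sites.

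Levels below are the log2 of the processed signal minus the log2 of the array's own 75th percentile, so a level of 0 is as bright as that percentile, and levels of different probes are not comparable. That percentile was 251.8 to 578.1 units of signal, and 54.8% to 68.5% of probes stood well above background on an array. A ± after a level is the SD of 4 arrays, and after a difference it is the SE of the fit. Differences are on the log2 scale, the group named first minus the other, so a negative one means a lower level. By the scan dates in the headers the doses were scanned in different years, and at full and reduced dose each genotype sat on a slide of its own. Dose therefore cannot be told apart from year of scan in any comparison of doses, nor genotype from slide at full and reduced dose. By their Xist and Ddx3y probes the 4 p53-null samples with no NTBC were female, as were replicates 1 and 2 of the p21-null group, and the other 22 samples were male. The dimmer Trp53 probe averaged -2.76 to -2.22 in the 3 p53-null groups and -1.37 to -0.27 in the others. The brighter one, at 0.54 to 1.22 and 0.80 to 1.41, did not separate them, and the probes for Fah and Cdkn1a gave signal in the mice lacking those genes and do not check the labels. Of 14 stellate markers fixed for this purpose, of which Des and Pdgfrb are themselves members, 13 stood well above background on all 4 arrays of every group, and Gfap did so in the p53-null reduced-dose group but on no array of the other 6 groups.

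Samples within the groups with no NTBC differed in most members at once. Replicate 1 of the p53-null group was lowest of its 4 for 32 of the 36 members tested, with a median deviation of -0.80 from the group mean. Replicate 1 of the Fah-/- group was highest for 29 members (median 0.70) and its replicate 3 lowest for 33 (median -0.76). In the p21-null group replicate 1 was highest for 24 (median 0.48) and replicate 2 lowest for 26 (median -0.56). Medians over all features lay between -0.03 and 0.03 on every array. Scaling each array to its own percentile limits how far that median can move, so it cannot show whether other genes shifted too. The SD of the deviations over all features was 0.595 on p53-null replicate 1, against 0.281 to 0.332 on its group's other arrays. It was 0.496 and 0.415 on p21-null replicates 1 and 2, against 0.332 and 0.342. On Fah-/- replicates 1 and 3 it was 0.331 and 0.373, against 0.275 and 0.265. Whether these shifts were particular to the members was not tested.

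The macrophage markers, 17 genes whose levels were summed on a linear scale (1 is the 75th percentile), were highest and lowest on the same arrays. Their sums were 130, 248, 242 and 209 on p53-null arrays 1 to 4, 242, 79.4, 236 and 164 on the p21-null arrays, and 410, 170, 101 and 168 on the Fah-/- arrays. Arrays lowest in the members were thus lowest in macrophage markers in each of these groups, and for cholangiocyte markers the lowest sums, 7.71, 7.48 and 9.37, fell on the same arrays. The mean log2 level of 14 stellate markers was lowest on the same arrays too: 0.14 on p53-null array 1, against 0.74 to 0.82 on the other 3, 0.11 on p21-null array 2, against 0.19 to 0.67, and 0.13 on Fah-/- array 3, against 0.42 to 0.56. By their summed level the lowest were p53-null array 1 again, with 91.8, but p21-null array 4, with 105, and Fah-/- array 1, with 108. Endothelial sums were lowest on p53-null array 1, with 42.5, p21-null array 1, with 40.9, and Fah-/- array 2, with 63.1. The part of these cell types in the members' levels was not tested.

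**Figure D1:**
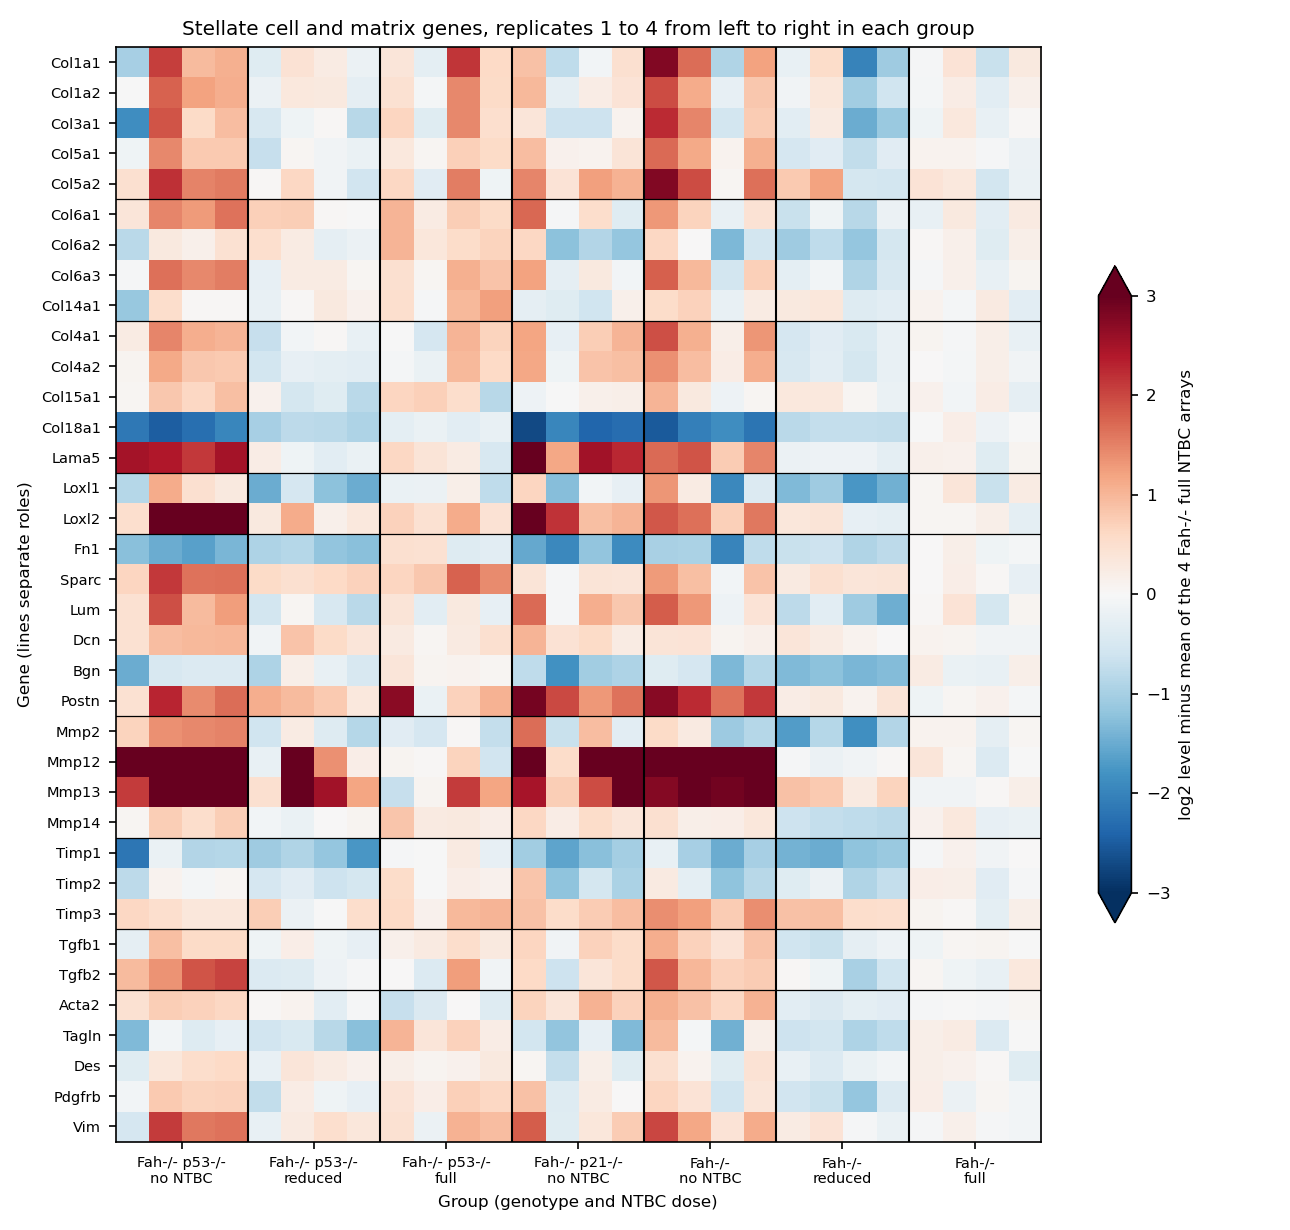
Heat map of the 36 tested members (rows, by role) on the 28 arrays (columns, by group), coloured by the log2 level minus the mean of the Fah-/- full-dose arrays. Columns of the groups with no NTBC differ from each other within a group, Fah-/- replicate 3 and p53-null replicate 1 being paler or bluer over most rows, while Col18a1 and Fn1 are low on all of them.

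**Figure D2:**
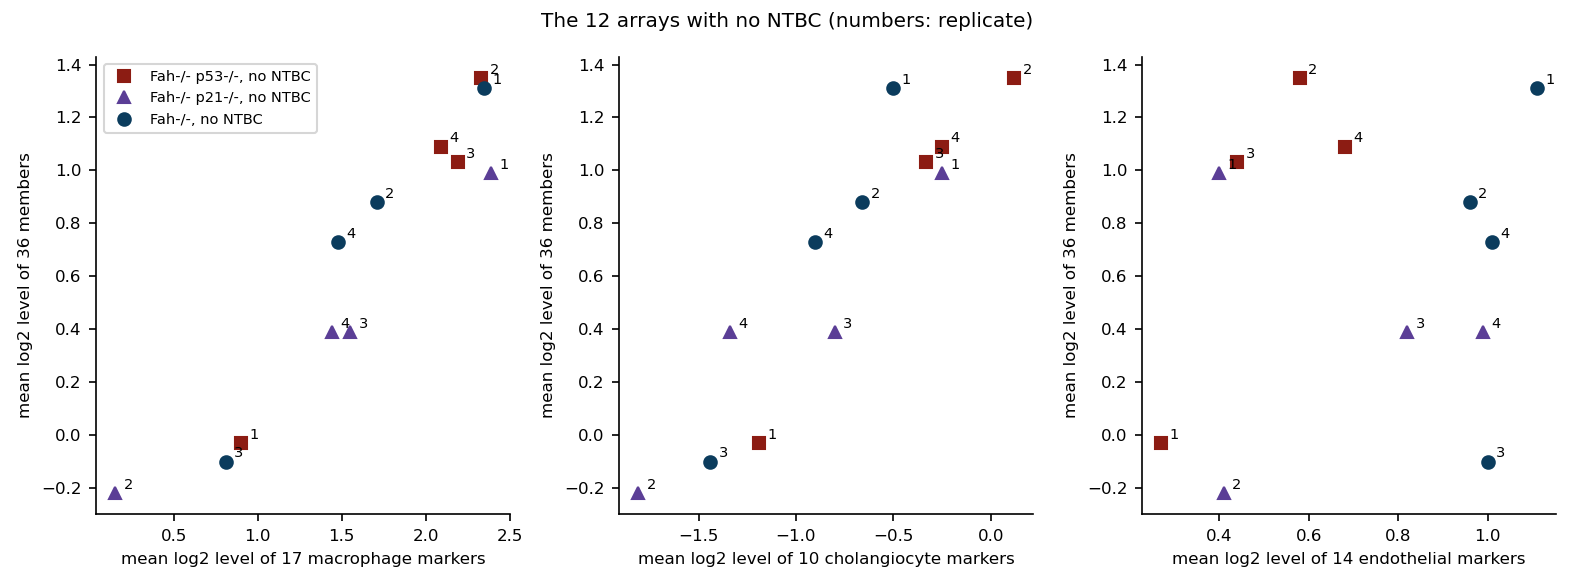
Mean log2 level of the 36 members (vertical) against the mean log2 level of macrophage, cholangiocyte and endothelial markers (horizontal, 1 panel each) on the 12 arrays with no NTBC, coloured by genotype. The array lowest in the members is also lowest in macrophage and in cholangiocyte markers in each of the 3 groups. For endothelial markers this holds in p53-null mice, but p21-null replicate 1 and Fah-/- replicate 2 are lowest in the other groups.

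Without NTBC, matrix and stellate genes moved in both directions against full dose, among them a rise of Lama5, Mmp12 and Mmp13 and a fall of Col18a1 and Fn1 in both genotypes. In Fah-/- liver, of the 36 members 15 were higher and 4 lower at an adjusted p under 0.05 (limma, adjusted over all features), where 29.3% of all features were called higher and 41.6% lower (70.9% in all). The median difference of the members was 0.75, and that of all features -0.17. In p53-null liver, which shares no array with that comparison, 9 members were higher and 6 lower, against 29.6% and 40.1% of all features (69.7% in all), and the medians were 0.37 and -0.14. The members called higher in both were Acta2, Lama5, Loxl2, Mmp12, Mmp13 and Tgfb2, which are 6 of 9 in p53-null and 6 of 15 in Fah-/- liver, and those called lower in both were Bgn, Col18a1, Fn1 and Timp1, 4 of 6 and 4 of 4. The share of all features called alike in both genotypes is not given here or below. No such overlap is therefore read as particular to the members. In whole liver, fewer cells of a type and less RNA per cell cannot be told apart for any of these genes.

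The fibrillar collagens, the ropes of scar tissue, leaned upward in Fah-/- liver but their main chains did not pass the test. Col1a1 stood at 2.82, 1.72, -0.86 and 1.25 in Fah-/- mice with no NTBC, against 0.01, 0.45, -0.62 and 0.33 at full dose. Arrays overlapped, the no-NTBC group spanning over 3 log2 units, and the difference of 1.19 ± 0.68 gave an adjusted p of 0.121. Col3a1, its partner in early scar, differed by 0.98 ± 0.60 (adjusted p 0.148) and Col1a2, the second chain of type I collagen, by 0.91 ± 0.41 (0.0501). The regulatory type V chains were called: Col5a2 differed by 1.61 ± 0.51 (0.00699) and Col5a1 by 1.0 ± 0.29 (0.0035), with overlapping arrays in both. In p53-null liver none of the 5 was called, Col1a1 being at -0.96, 2.12, 0.99 and 1.11 with no NTBC, against 0.41, -0.25, 2.18 and 0.65 at full dose. Its difference there was 0.07 ± 0.68.

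Of the type VI and XIV chains that bind cells or collagen fibrils to one another, none of 4 was called in Fah-/- liver. In p53-null liver Col14a1 was lower by -0.80 ± 0.30 (adjusted p 0.0193), at 0.30, 1.97, 1.48 and 1.47 with no NTBC, against 1.94, 1.41, 2.42 and 2.68 at full dose. The arrays overlapped, and the call ended without p53-null no-NTBC replicate 1 (adjusted p 0.123), or without full-dose replicate 3 (0.0582) or 4 (0.0835).

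The basement membrane genes moved both ways. Col18a1, whose cleaved end is the angiogenesis inhibitor endostatin and which hepatocytes make in the healthy liver, was lower in both genotypes. It stood at 5.73, 5.41, 5.62 and 5.92 in p53-null mice with no NTBC, against 7.58, 7.69, 7.57 and 7.66 at full dose, and at 5.36, 5.84, 6.01 and 5.70 in Fah-/- mice with no NTBC, against 7.86, 8.08, 7.72 and 7.86 at full dose. No arrays overlapped in either genotype. The level was 3.87-fold lower in p53-null (adjusted p 1.52e-11) and 4.44-fold lower in Fah-/- liver (3.68e-12), and a second probe gave log2 differences of -2.13 and -2.11.

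Beside this fall, 13 of 13 tested hepatocyte markers were lower in Fah-/- and 12 of 13 in p53-null liver. The summed level of those markers was 1160 to 1270 in p53-null mice with no NTBC, against 4780 to 4930 at full dose, and 1170 to 1520 in Fah-/- mice with no NTBC, against 4500 to 5260 at full dose. Whether the 2 changes belong together was not tested.

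Lama5, the laminin chain of adult vascular and epithelial basement membranes, moved the opposite way from Col18a1. It was at 0.54, 0.45, 0.17 and 0.55 in p53-null mice with no NTBC, against -1.32, -1.55, -1.71 and -2.43 at full dose, and at -0.24, -0.07, -1.18 and -0.49 in Fah-/- mice with no NTBC, against -1.79, -1.82, -2.31 and -1.86 at full dose. The groups were separate in both genotypes. The rise was 4.54-fold in p53-null (log2 2.18 ± 0.29, adjusted p 5.11e-07) and 2.73-fold in Fah-/- liver (1.45 ± 0.29, 0.000117).

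Col4a1 and Col4a2, the chains of the type IV collagen network whose windows share 78 bases, rose in Fah-/- liver. Col4a1 was at 2.12, 1.26, 0.37 and 1.51 with no NTBC, against 0.27, 0.15, 0.37 and -0.02 at full dose, and Col4a2 at 1.35, 0.90, 0.20 and 1.07, against -0.03, -0.10, 0.14 and -0.13. Replicate 3 of the no-NTBC group lay close to the full-dose arrays for both genes. The changes were 2.18-fold (adjusted p 0.00577) and 1.88-fold (0.00467), and each gene's second probe was called in the same direction. In p53-null liver the differences of 0.67 ± 0.34 (0.0861) and 0.37 ± 0.27 (0.223) did not pass, nor did that of Col15a1, another basement membrane collagen, in either genotype (0.33 and 0.31).

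Among the crosslinking enzymes Loxl2, a lysyl oxidase-like enzyme that also acts on type IV collagen, rose in both genotypes. It was at -0.58, 2.91, 3.00 and 2.36 in p53-null mice with no NTBC, against -0.39, -0.63, 0.03 and -0.65 at full dose, and at 0.79, 0.58, -0.37 and 0.50 in Fah-/- mice with no NTBC, against -1.02, -1.01, -0.90 and -1.38 at full dose. In p53-null liver replicates 2, 3 and 4 were far above full dose and replicate 1 lay among the full-dose arrays, while in Fah-/- liver all 4 were above. The log2 differences were 2.33 ± 0.57 (adjusted p 0.000938) and 1.46 ± 0.57 (0.0271). With a term for sex the p53-null difference was 0.44 (0.694) and was not called. The Fah-/- call ended without no-NTBC replicate 1, 2 or 4 or full-dose replicate 4 (0.0524 to 0.0682). Loxl1, which acts mainly on elastin, was not called (0.51 and -0.19).

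The glycoproteins and proteoglycans split. Postn, periostin, a matrix protein of wounds, was at 1.84, 1.33, 0.72 and 1.21 in Fah-/- mice with no NTBC, against -1.04, -0.83, -0.78 and -0.95 at full dose. All 4 arrays were above all 4 of full dose, a 4.51-fold rise (log2 2.17 ± 0.43, adjusted p 0.000102). In p53-null mice it was at -0.44, 1.39, 0.52 and 0.77 with no NTBC, against 1.81, -1.10, -0.22 and 0.14 at full dose, a difference of 0.41 ± 0.43 (0.41) with wide overlap. Sparc, which helps assemble collagen, was higher in Fah-/- liver by 0.74 ± 0.27 (0.0176), but not without no-NTBC replicate 1 (0.082) or full-dose replicate 4 (0.0508).

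Fn1, fibronectin, which hepatocytes also secrete into plasma, was lower in both genotypes. It stood at 1.84, 1.59, 1.46 and 1.71 in p53-null mice with no NTBC, against 3.57, 3.55, 2.69 and 2.77 at full dose, and at 2.10, 2.13, 1.11 and 2.31 in Fah-/- mice with no NTBC, against 3.1, 3.25, 2.96 and 3.02 at full dose. No arrays overlapped, and the level was 2.81-fold lower in p53-null (adjusted p 2.95e-06) and 2.25-fold lower in Fah-/- liver (6.86e-05). Its 2 other probes were called lower as well.

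The small leucine-rich proteoglycans, which coat collagen fibrils, differed from each other. Bgn, biglycan, was lower by -0.84 ± 0.26 in p53-null (adjusted p 0.00549) and by -0.77 ± 0.26 in Fah-/- liver (0.0104, and 0.0549 without no-NTBC replicate 3). Lum, lumican, was higher by 1.12 ± 0.39 in p53-null liver (0.0138, and 0.0662 without no-NTBC replicate 2) and had a difference of 0.85 ± 0.39 (0.0561) in Fah-/- liver. Dcn, decorin, a binder of TGF-beta, was higher by 0.58 ± 0.17 in p53-null (0.00498) and had a difference of 0.26 ± 0.17 (0.182) in Fah-/- liver.

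Metalloproteinases gave the widest differences. Mmp12, macrophage elastase, was at -3.41, -0.37, -0.58 and -1.08 in p53-null mice with no NTBC, against -6.33, -6.38, -5.76 and -6.99 at full dose, and at -0.99, -1.96, -3.1 and -1.22 in Fah-/- mice with no NTBC, against -6.06, -6.35, -6.83 and -6.44 at full dose. No full-dose array stood well above background in either genotype and every no-NTBC array did, so only a lower bound can be given. Set against the dimmest signal above background on each array, Mmp12 was at least 8.59-fold higher in p53-null liver (adjusted p 3.48e-05) and at least 5.93-fold higher in Fah-/- liver (9.46e-05).

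Mmp13, collagenase 3, likewise was not well above background on any Fah-/- full-dose array. It was at -2.94, -1.22, -2.79 and -0.74 with no NTBC, against -5.81, -5.79, -5.65 and -5.53 at full dose, at least 5.52-fold higher (adjusted p 0.000222). In p53-null mice it was at -3.59, -0.02, -0.08 and -0.11 with no NTBC, against -6.39, -5.62, -3.60 and -4.51 at full dose, where 2 of 4 arrays were above background. Replicate 1 only just cleared the highest full-dose array, and the log2 difference was 4.08 ± 0.80 (9.23e-05). With normexp background correction neither gene was called in either genotype and the bounds for Mmp12 shrank to 1.47-fold and 1.81-fold. Both genes entered the tests only because their probes stood well above background throughout groups with no NTBC. Their p-values and their places in the counts of members called higher are therefore not independent of being high there.

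Mmp2, gelatinase A, a product of activated stellate cells, rose in p53-null liver. It was at -1.59, -0.90, -0.83 and -0.77 with no NTBC, against -2.61, -2.76, -2.23 and -2.99 at full dose, 3.09-fold higher (adjusted p 0.00133). In Fah-/- mice it was at -1.68, -2.0, -3.35 and -3.12 with no NTBC, against -2.16, -2.16, -2.54 and -2.20 at full dose, arrays lying on both sides (-0.27 ± 0.41). Mmp14, the membrane-bound activator of Mmp2, was not called in either genotype (0.12 and 0.30).

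Among the inhibitors Timp3, the TIMP that binds to matrix, was at 2.40, 2.23, 1.77 and 2.40 in Fah-/- mice with no NTBC, against 1.08, 1.05, 0.72 and 1.18 at full dose. The groups were separate, a 2.28-fold rise (log2 1.19 ± 0.20, adjusted p 1.16e-05). In p53-null mice it was at 1.63, 1.52, 1.35 and 1.34 with no NTBC, against 1.61, 1.14, 1.97 and 2.02 at full dose, with no called difference (-0.23 ± 0.20). Timp2 was not called in either genotype (-0.38 and -0.51).

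Timp1, the inhibitor that injured liver is known to induce, gave opposite answers from its 2 probes. The brighter, which stands for the gene in the counts above, was lower by -1.01 ± 0.29 in p53-null (adjusted p 0.00318) and by -0.93 ± 0.29 in Fah-/- liver (0.00614). The dimmer was at -4.80, -2.47, -3.29 and -3.27 in p53-null mice with no NTBC, against -6.49, -6.15, -3.28 and -5.63 at full dose, and at -2.22, -3.48, -4.45 and -3.38 in Fah-/- mice with no NTBC, against -5.58, -5.93, -6.46 and -6.12 at full dose. That probe was well above background on all no-NTBC arrays of both genotypes, on 1 p53-null and on 0 Fah-/- full-dose arrays. It was called higher in both, by 1.93 ± 0.59 (0.00557) in p53-null and at least 2.01-fold in Fah-/- liver (0.000354), and which of these probes reads Timp1 was not tested.

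Acta2, smooth muscle actin, the usual mark of an activated stellate cell, was at 3.24, 3.51, 3.48 and 3.39 in p53-null mice with no NTBC, against 2.08, 2.34, 2.79 and 2.40 at full dose, and at 3.84, 3.65, 3.40 and 3.81 in Fah-/- mice with no NTBC, against 2.75, 2.77, 2.75 and 2.84 at full dose. By this brightest probe it was 2.0-fold higher in p53-null (adjusted p 8.95e-07) and 1.86-fold higher in Fah-/- liver (4.22e-06), with no overlap. The other 2 probes did not show that: one was not well above background on any array with no NTBC and was called lower, by at least 3.44-fold in p53-null (7.28e-08) and 3.23-fold in Fah-/- liver (9.11e-09), and the other gave -1.15 ± 0.55 (0.0658) and 0.24 ± 0.55 (0.712). Of 13 members with several kept probes, Timp1, Acta2 and Col5a1 had probes called in opposite directions for no against full NTBC, the second Col5a1 probe giving -1.64 ± 0.22 in Fah-/- liver. Col14a1 in Fah-/- liver differed in sign too, by 0.31 (not called) and -0.99 (called). Which probe reads the main transcript of these genes was not tested.

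**Figure D3:**
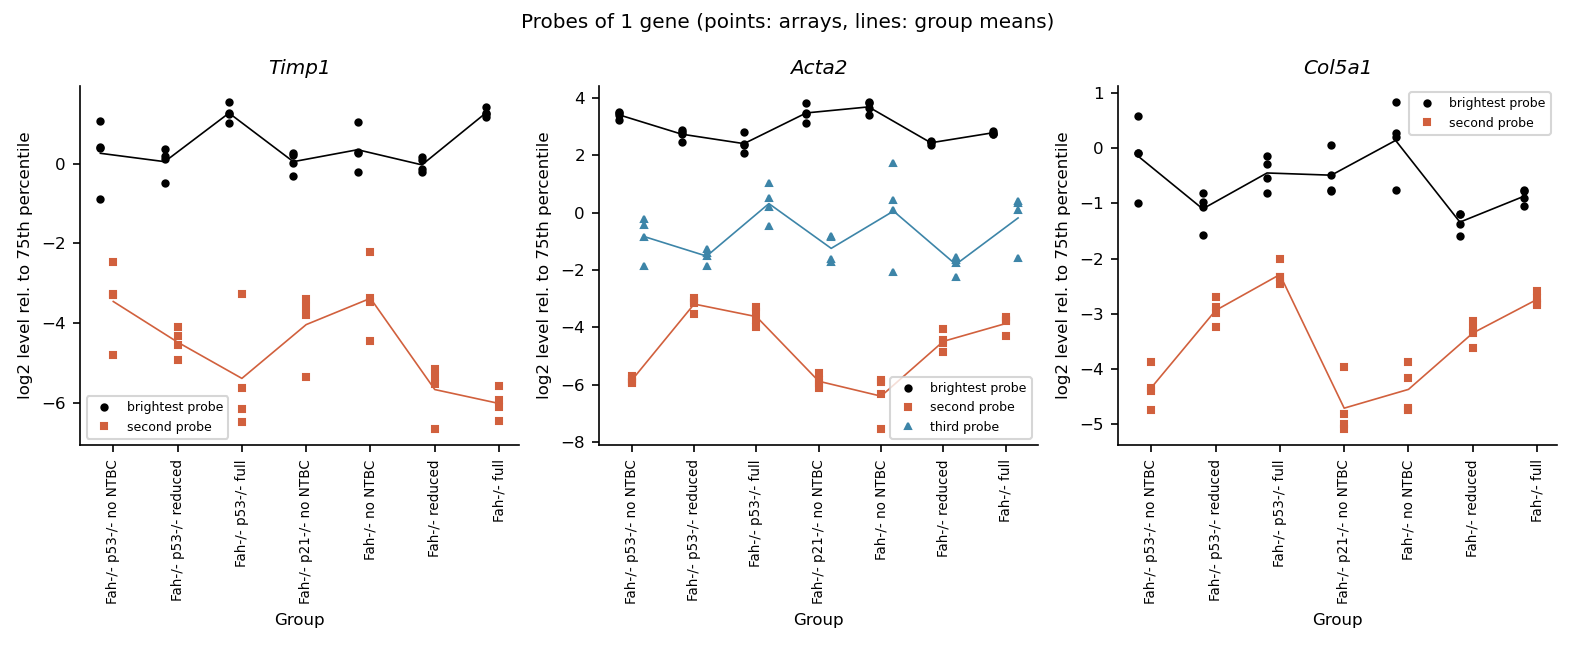
Log2 levels of each probe of Timp1, Acta2 and Col5a1 (panels) by group, with points for arrays and lines joining the group means. The dimmer Timp1 probe is higher with no NTBC than at full dose while the brighter is lower, and for Acta2 the brightest probe is higher and the dimmest lower.

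The remaining stellate and contractile members were called in 1 genotype or in neither. Tagln, a smooth muscle actin-binding protein, was lower in p53-null liver by -1.09 ± 0.35 (adjusted p 0.00877), at 1.14, 2.36, 2.06 and 2.20 with no NTBC, against 3.47, 2.82, 3.15 and 2.67 at full dose, though its second probe gave -0.02. Vim, the intermediate filament of mesenchymal cells and macrophages, was higher in Fah-/- liver by 1.17 ± 0.45 (0.0236), a call that ended without no-NTBC replicate 1 (0.0976). Des, the desmin filament of stellate and muscle cells, and Pdgfrb, the PDGF receptor of stellate cells, stayed uncalled in both genotypes, with differences of 0.03 to 0.20.

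Of the ligands, Tgfb2 rose in both genotypes: it was at -3.11, -2.72, -2.19 and -2.05 in p53-null mice with no NTBC, against -4.07, -4.49, -2.81 and -4.18 at full dose, and at -2.20, -3.08, -3.37 and -3.31 in Fah-/- mice with no NTBC, against -4.02, -4.20, -4.30 and -3.76 at full dose. Full-dose replicate 3 overlapped the p53-null arrays with no NTBC, and the Fah-/- groups were separate. The log2 differences were 1.37 ± 0.33 (adjusted p 0.000848) and 1.08 ± 0.33 (0.00598), and normexp correction gave -0.17 and -0.16. Tgfb1, the main activator of stellate cells, was higher in Fah-/- liver by 0.77 ± 0.20 (0.00179) and not called in p53-null liver (0.13 ± 0.20).

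**Figure D4:**
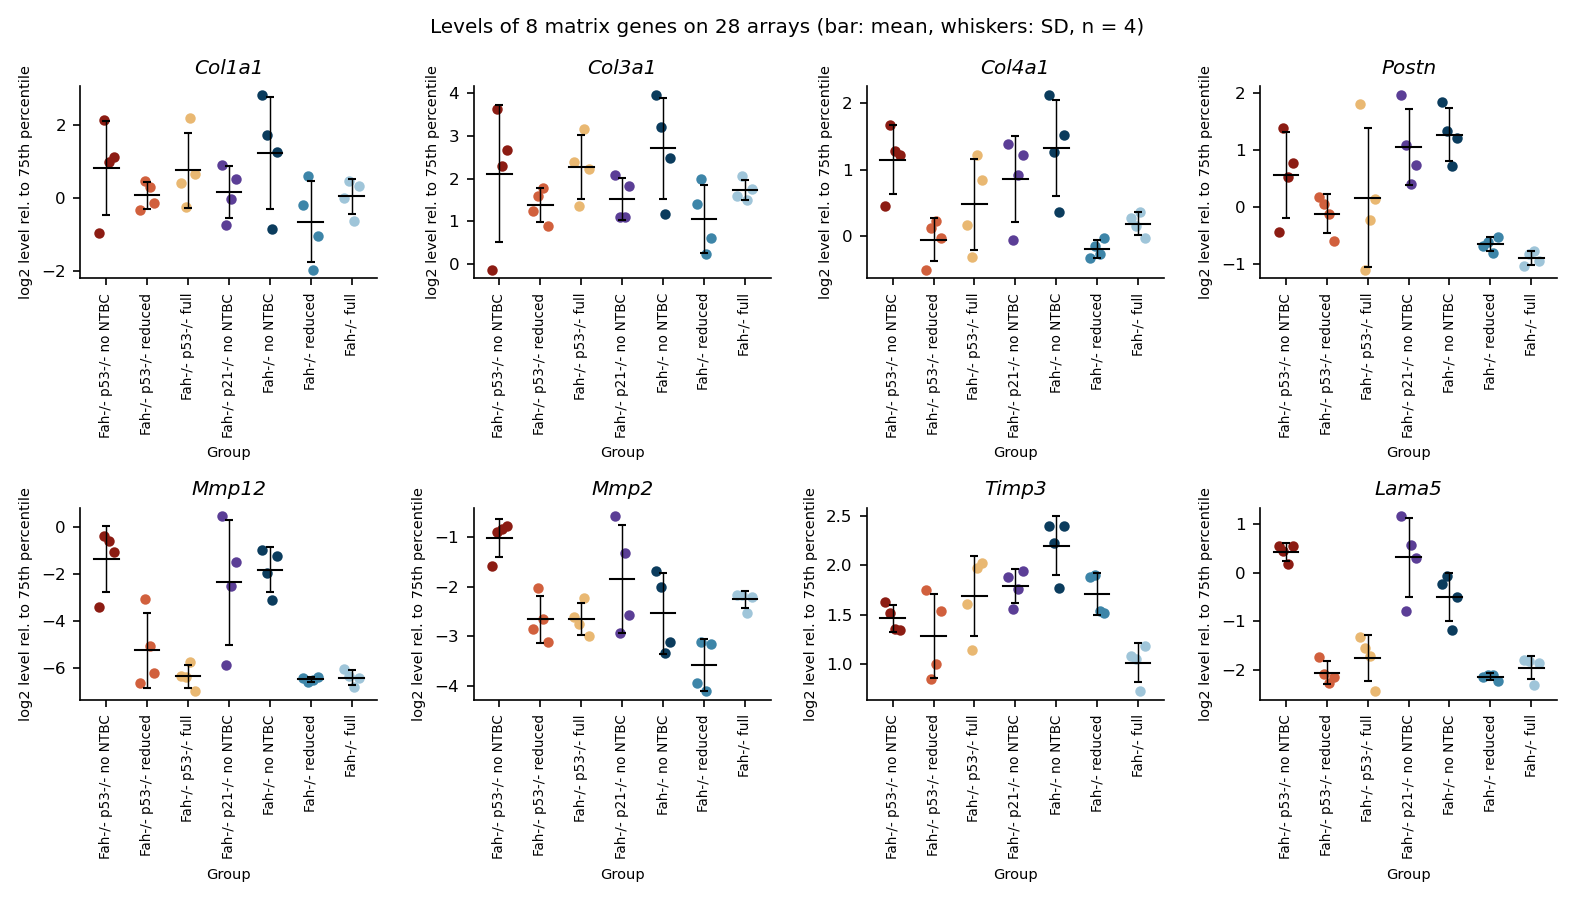
Log2 levels of Col1a1, Col3a1, Col4a1, Postn, Mmp12, Mmp2, Timp3 and Lama5 (panels) in the 7 groups, with a point per array and a bar for the mean and SD of 4. Lama5 and Mmp12 are higher with no NTBC than at full dose in both genotypes, Postn and Timp3 are so in Fah-/- mice, and Col1a1 arrays with no NTBC overlap those at full dose.

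With a term for sex in the fit, 7 of the 36 members were called for no against full NTBC in p53-null mice, in place of 15. They were Acta2 (1.35), Lama5 (2.43), Mmp12, Mmp13 and Tgfb2 (1.83), higher, and Col18a1 (-1.96) and Fn1 (-1.29), lower. All p53-null mice with no NTBC were female and all at full dose male, so the sex difference in that fit comes from the p21-null group alone. The females of that group lay on slide 5 and its males on slide 7, so the term cannot tell sex apart from slide. The share of all features called in that fit is not given here, so the drop is not read as particular to the members.

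At the reduced dose the members' medians lay below full dose, while the share called lower was close to that of all features. In p53-null liver 0 of 36 were higher and 7 lower, where 20.3% of all features were called higher and 19.6% lower (39.8% in all). In Fah-/- liver 1 was higher and 8 lower, against 17.4% and 22.3% (39.8% in all). Medians of the members were -0.52 in p53-null and -0.42 in Fah-/- liver, beside 0.02 and -0.03 for all features. These 2 comparisons share no array, and 5 members were lower in both, 5 of 7 and 5 of 8: Col18a1, Fn1, Mmp14, Pdgfrb and Timp1 (brighter probe). As above, that overlap is not read as particular to the members.

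Fn1 was at 2.16, 2.22, 1.90 and 1.84 in p53-null mice on the reduced dose, against 3.57, 3.55, 2.69 and 2.77 at full dose, and at 2.41, 2.46, 2.19 and 2.30 in Fah-/- mice, against 3.1, 3.25, 2.96 and 3.02. Both groups were separate, with falls of 2.16-fold (adjusted p 0.000432) and 1.67-fold (0.0112). Col18a1 was at 6.89, 7.09, 7.06 and 6.96 in p53-null mice on the reduced dose and at 7.06, 7.17, 7.17 and 7.14 in Fah-/- mice, below every full-dose array of its genotype given above. The changes were -0.63 ± 0.14 (0.000891) and -0.74 ± 0.14 (0.000174).

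Pdgfrb, which brings the PDGF signal into stellate cells, was lower by -0.71 ± 0.27 in both genotypes (adjusted p 0.0379 in p53-null and 0.0391 in Fah-/- liver). Both calls were weak: 6 arrays in either genotype, among them replicates 1, 3 and 4 of full dose, ended it when left out, with p up to 0.135 and 0.132. The other 3 were reduced-dose replicates 1, 3 and 4 in p53-null and 1, 2 and 3 in Fah-/- mice. Mmp14 was lower by -0.43 ± 0.16 (0.0295) and -0.73 ± 0.16 (0.000683). The p53-null call ended without reduced-dose replicate 1 or 2 or full-dose replicate 1 (0.0573 to 0.145), and its second probe in Fah-/- liver gave -0.05.

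Called in 1 genotype were Tagln (-1.35 ± 0.35, adjusted p 0.00396) and Col4a2 (-0.68 ± 0.27, 0.0489, lost without any of 20 of the 28 arrays) in p53-null liver, and Bgn, Mmp2 and Loxl1 in Fah-/- liver. Bgn was at -0.73, -0.63, -0.77 and -0.71 in Fah-/- mice on the reduced dose, against 0.84, 0.39, 0.38 and 0.76 at full dose, 2.47-fold lower (0.000316) with a wide gap. Mmp2 was lower by -1.32 ± 0.41 (0.0143), and Loxl1 by -1.39 ± 0.50 (0.0297), a call that ended without Fah-/- full-dose replicate 1, 2 or 4 or reduced-dose replicate 1, 3 or 4 (0.0523 to 0.0748). By the probes that stand for the genes the 1 member that rose was Timp3, at 1.88, 1.90, 1.54 and 1.52 in Fah-/- mice on the reduced dose, against 1.08, 1.05, 0.72 and 1.18 at full dose (0.70 ± 0.20, 0.00702). The dimmer Sparc probe was higher there too, at 2.73, 3.02, 2.73 and 2.43, against 1.44, 1.45, 1.49 and 1.39 at full dose. Its brighter probe, averaging 3.43 and 3.06, was not called, and which probe reads Sparc was not tested. Col1a1, Col1a2, Col3a1 and Acta2 (brightest probe) were not called in either genotype, with differences of -0.90 to 0.33. Another Acta2 probe, well above background on all 28 arrays, was called lower in both. It gave -1.84 ± 0.55 (0.0104) in p53-null and -1.62 ± 0.55 (0.0222) in Fah-/- liver. The dimmest Acta2 probe was not called (0.44 and -0.62).

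Set side by side, the summed level of macrophage markers at the reduced dose was 60.4 to 108 in p53-null and 52.0 to 74.8 in Fah-/- mice, against 54.4 to 94.4 and 54.9 to 89.4 at full dose. The ranges overlapped in both genotypes, unlike the hepatocyte markers, which summed to 2790 to 3160 and 2690 to 3120 at the reduced dose, against 4780 to 4930 and 4500 to 5260 at full dose. The mean log2 level of the stellate markers was -0.04 to 0.81 at the reduced dose in p53-null mice, against 0.48 to 0.76 at full dose, and -0.09 to 0.11 in Fah-/- mice, against 0.26 to 0.40, where the arrays were separate. Of the 14, 0 were called higher and 4 lower in p53-null, and 0 and 3 in Fah-/- liver. Cholangiocyte markers were higher for 1 and lower for 4 of 10 in p53-null, and 0 and 5 in Fah-/- liver, and endothelial markers were lower for 6 and 2 of 14. The part of these cell types in the members' levels at the reduced dose was not tested.

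**Figure D5:**
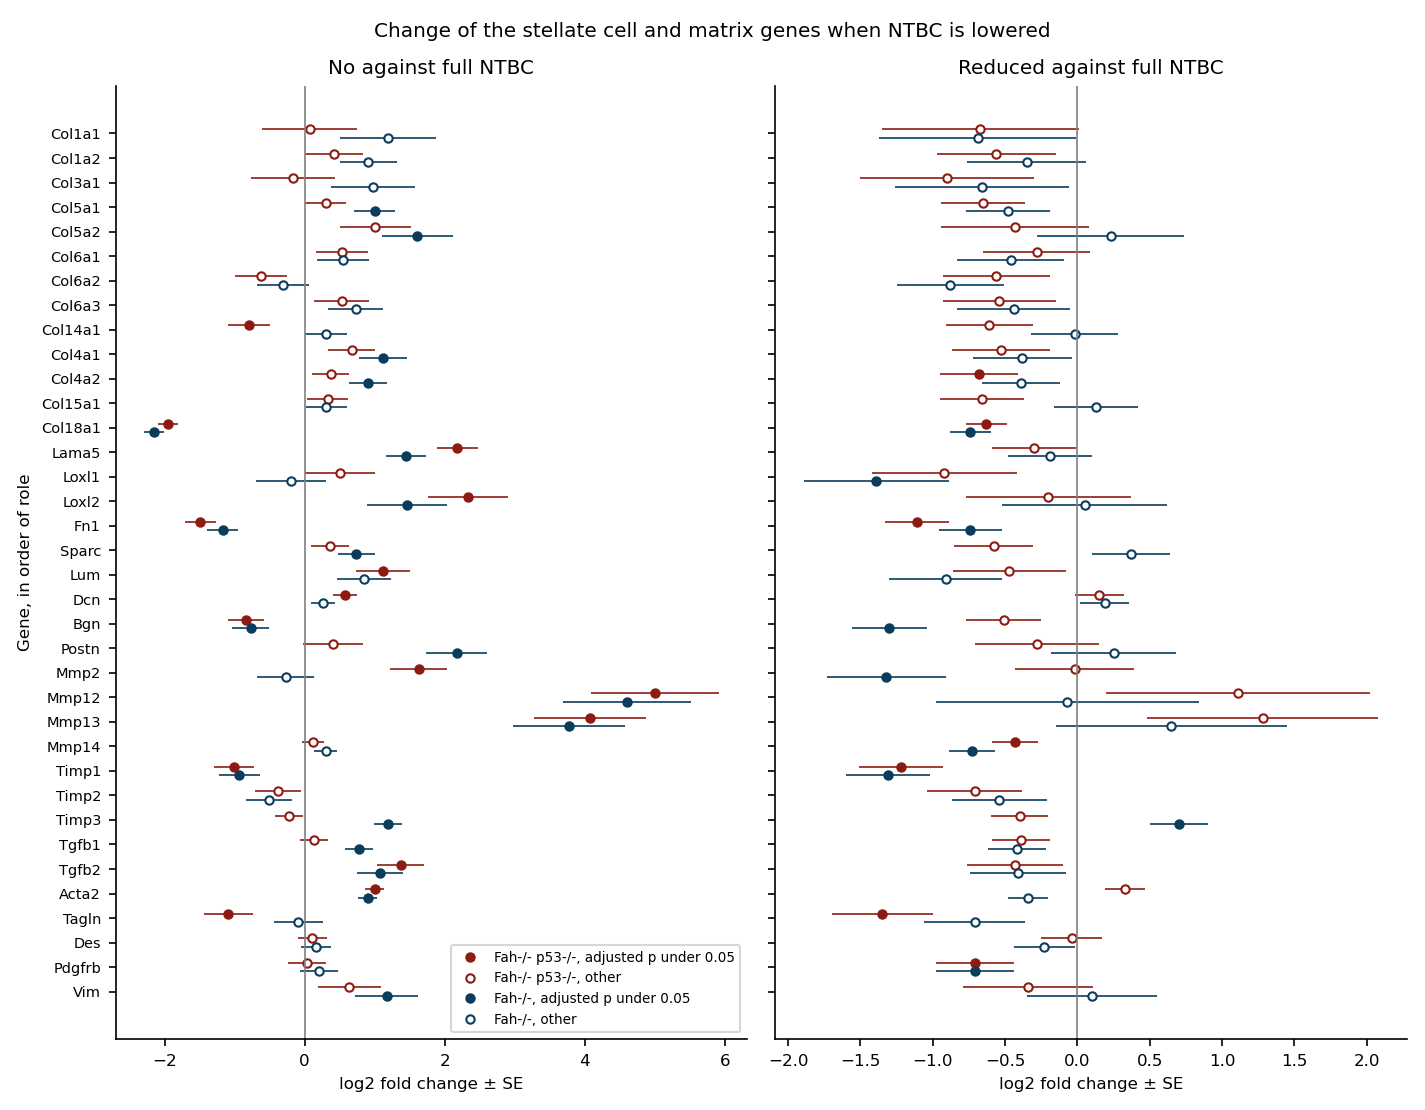
Log2 difference from full dose of each of the 36 members (rows) with no NTBC and at the reduced dose (panels), with bars for the SE. Red stands for p53-null and blue for Fah-/- liver, and filled points are called at an adjusted p under 0.05. Most points lie right of 0 with no NTBC and left of it at the reduced dose.

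Against the reduced dose, no NTBC brought more of the members up. In p53-null liver 21 of 36 were higher and 1 lower, where 23.2% of all features were called higher and 38.1% lower (61.3% in all). In Fah-/- liver 24 were higher and 1 lower, against 26.1% and 38.1% (64.3% in all). The medians were 0.78 and 1.12, beside -0.16 and -0.15 for all features, and the 1 lower member was Col18a1 in both. Higher in both were 18 members, 18 of 21 and 18 of 24, an overlap without the share over all features beside it and not read as particular to the members. Among the cell type markers, in p53-null and then Fah-/- liver, 12 and 16 of 17 macrophage and 6 and 8 of 10 cholangiocyte markers were higher, 6 and 6 of 14 stellate markers were higher, and 12 and 11 of 13 hepatocyte markers were lower. Their part in the members' differences was not tested.

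Main collagen chains passed this test where they had not against full dose. In Fah-/- liver Col1a1 differed by 1.88 ± 0.68 (adjusted p 0.0191), Col3a1 by 1.64 ± 0.60 (0.0202) and Col1a2 by 1.26 ± 0.41 (0.00959). Col1a1 was at 2.82, 1.72, -0.86 and 1.25 with no NTBC, against -0.19, 0.60, -1.96 and -1.03 at the reduced dose, and the arrays overlapped. Without Fah-/- no-NTBC replicate 1 none of these 3 was called and 14 members remained in place of 25, and without reduced-dose replicate 3 there were 16. The share of all features called in those fits is not given here, so these drops are not read as particular to the members. In p53-null liver only Col1a2 of the 3 was called (0.98 ± 0.41, 0.0407), and 5 arrays ended that call when left out (0.0736 to 0.15).

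Among those called with separate arrays in both genotypes were Col4a1, Col4a2, Lum, Acta2 (brightest probe), Tgfb2 and Lama5, all higher, and Col18a1, lower by -1.33 ± 0.14 in p53-null and -1.41 ± 0.14 in Fah-/- liver. Another Acta2 probe, not well above background on any array with no NTBC, was called lower. Its fall was at least 4.67-fold in p53-null (adjusted p 1.11e-08) and 2.11-fold in Fah-/- liver (1.15e-06). A further Acta2 probe gave 0.68 ± 0.55 (0.288) and 1.86 ± 0.55 (0.00515). Col5a1 was called higher in both by its brighter probe. Its dimmer probe averaged -4.34 and -4.37 with no NTBC, against -2.94 and -3.35 at the reduced dose. Col4a1 was higher by 1.20 ± 0.34 in p53-null and 1.5 ± 0.34 in Fah-/- liver, and Col4a2 by 1.05 ± 0.27 and 1.30 ± 0.27. Lama5 was at 0.54, 0.45, 0.17 and 0.55 in p53-null mice with no NTBC, against -1.72, -2.08, -2.27 and -2.14 at the reduced dose, 5.58-fold higher (adjusted p 1.51e-07), and 3.11-fold higher in Fah-/- liver (4e-05). Mmp14, low at the reduced dose, was higher by 0.55 ± 0.16 (0.00395) and 1.03 ± 0.16 (4.98e-06). With a term for sex 10 members were called in p53-null liver in place of 22, among them Col4a1, Col4a2, Lama5, Lum, Tgfb1 and Tgfb2. As above, that term cannot tell sex apart from slide, and the share of all features called in that fit is not given here. The drop is therefore not read as particular to the members.

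Genotypes at the same dose differed in few members. At full dose 2 were higher in p53-null liver and 0 lower, against 6.34% of features called higher and 7.59% lower (13.9% in all). Sparc was at 3.70, 3.87, 4.82 and 4.48 in p53-null mice, against 3.06, 3.26, 3.09 and 2.82 in Fah-/- mice, all 4 above (1.16 ± 0.27, adjusted p 0.00503). Timp3 was higher by 0.68 ± 0.20 (0.0237) with overlapping arrays, and not without p53-null replicate 3 or 4 or Fah-/- replicate 3 (0.0793 to 0.0854). At the reduced dose 2 were higher and 0 lower, against 9.83% and 5.79% (15.6% in all). These were Bgn (0.94 ± 0.26, 0.014, and 0.0665 without p53-null replicate 2) and Mmp14 (0.69 ± 0.16, 0.004).

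With no NTBC 3 members were higher in p53-null than in Fah-/- liver and 1 lower, against 7.65% and 6.6% of features (14.3% in all). Mmp2 was at -1.59, -0.90, -0.83 and -0.77 in p53-null mice, against -1.68, -2.0, -3.35 and -3.12 in Fah-/- mice, without overlap (1.52 ± 0.41, adjusted p 0.017). Lama5 was higher by 0.93 ± 0.29 (0.0351) and Dcn by 0.58 ± 0.17 (0.0265), and Timp3 was lower by -0.74 ± 0.20 (0.0151). On slide 6, which held both genotypes, the differences were 1.04 for Mmp2, 0.52 for Lama5, 0.59 for Dcn and -0.97 for Timp3, none called with 2 arrays each. None of these was called with slide as a fixed block, or with a term for sex. All p53-null samples with no NTBC were female and all Fah-/- ones male, on slide 6 too. Genotype therefore cannot be told apart from sex in this comparison. Leaving out Fah-/- replicate 4 ended all 4 calls, Fah-/- replicate 3 all but that of Timp3, and p53-null replicate 2 or 4 those of Dcn and Lama5. The call of Dcn also ended without p53-null replicate 3 and that of Lama5 without p53-null replicate 1.

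The response to dose itself was tested for a difference between genotypes. For no against full NTBC 1 member responded more in p53-null liver and 1 less, against 4.86% and 4.26% of features (9.12% in all). Timp3 responded less, by -1.42 ± 0.28 (adjusted p 0.00241), a difference of -0.23 in p53-null liver beside 1.19 in Fah-/- liver. Mmp2 responded more, by 1.90 ± 0.59 (0.0426), with 1.63 in p53-null and -0.27 in Fah-/- liver. That call ended without any of 13 arrays (0.0509 to 0.0927), and with a term for sex neither gene was called. In this test only the p53-null samples with no NTBC were female, so p53 loss cannot be told apart from sex. Postn, called in Fah-/- liver alone, had a difference of -1.77 ± 0.61 (0.0702) between the responses, so these data do not show that its response depends on p53.

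For the reduced dose 1 member responded more in p53-null liver and 1 less, against 6.74% and 3.64% of features (10.4% in all). Each group in this test sat on a slide of its own, so p53 loss cannot be told apart from slide. Timp3 again responded less, by -1.11 ± 0.28 (adjusted p 0.0143), the full-dose arrays being the same in both tests. Acta2 by its brightest probe responded more, by 0.67 ± 0.20 (0.031), with 0.33 in p53-null and -0.34 in Fah-/- liver, and 6 arrays ended that call when left out (0.0521 to 0.0703).

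In p21-null liver without NTBC 0 members were called against Fah-/- liver, where 3.94% of features were called higher and 3.59% lower (7.53% in all). Of the 36, 6 had an unadjusted p under 0.05, the smallest adjusted p being 0.0882, for Lama5 (0.82 ± 0.29). Lama5 was at 1.16, -0.78, 0.58 and 0.31 in p21-null mice, against -0.24, -0.07, -1.18 and -0.49 in Fah-/- mice. The median of the members was -0.37, beside 0.02 for all features. Without Fah-/- replicate 3, 3 members were called, all lower, and without p21-null replicate 2, 1 was called, higher. The share of all features called in those fits is not given here.

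Between p53-null and p21-null liver 2 members were higher in p53-null and 0 lower, against 5.04% and 5.97% of features (11.0% in all). Sparc was at 3.70, 5.18, 4.69 and 4.72 in p53-null mice, against 3.44, 3.02, 3.45 and 3.41 in p21-null mice (1.24 ± 0.27, adjusted p 0.00401). Tgfb2 was at -3.11, -2.72, -2.19 and -2.05, against -3.48, -4.68, -3.71 and -3.52 (1.33 ± 0.33, 0.0113, and 0.0501 without p53-null replicate 4). Both groups were separate for both genes. On slide 5, which held both genotypes, the differences were 1.21 and 1.16, not called. Without p53-null replicate 1, 8 members were called, all higher, without p21-null replicate 1, 5, and without p53-null replicate 4, 1. The share of all features called in those fits is not given here.

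Over the 7 groups the mean level was highest in p53-null mice with no NTBC for 18 of the 36 members, in Fah-/- mice with no NTBC for 10, in p53-null mice at full dose for 6 and in Fah-/- mice at full dose for 2. It was lowest in Fah-/- mice on the reduced dose for 22. Neighbours in such an order often overlapped: Col1a1 averaged 0.81 ± 1.28, 0.07 ± 0.37 and 0.75 ± 1.03 in p53-null mice with no, reduced and full NTBC, 0.16 ± 0.71 in p21-null mice, and 1.23 ± 1.54, -0.65 ± 1.10 and 0.04 ± 0.48 in Fah-/- mice with no, reduced and full NTBC.

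Other genes of the same processes were counted over whole lists of pathway genes, where 29.6% of all features were called higher and 40.1% lower in p53-null, and 29.3% and 41.6% in Fah-/- liver. The counts of several lists lie near these shares, and nothing particular to a list is read from them. For no against full NTBC, 15 of 28 tested genes of TGF-beta signalling were higher and 4 lower in p53-null liver, and 14 and 2 in Fah-/- liver. Tgfbr2, the type II receptor, differed by 2.06 ± 0.20 and 3.86 ± 0.20, and its response was smaller in p53-null liver by -1.80 ± 0.29 (adjusted p 0.000349). Inhbb, an activin subunit, differed by 3.42 ± 0.29 and 2.64 ± 0.29.

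Of 25 other proteases and inhibitors 11 were higher and 4 lower in p53-null and 10 and 7 in Fah-/- liver. Plat, tissue plasminogen activator, differed by 5.90 ± 0.37 and 4.87 ± 0.37 and Plaur, the urokinase receptor, by 5.43 ± 0.32 and 5.86 ± 0.32, which are wider than the differences of the collagens. Of 38 other matrix genes 13 were higher and 11 lower in p53-null and 15 and 8 in Fah-/- liver. Nid1, which joins laminin to type IV collagen, rose by 3.27 ± 0.19 and 4.26 ± 0.19. Omd, a proteoglycan of bone, was lower by -3.40 ± 0.62 and -5.81 ± 0.62.

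Collagen-processing enzymes were higher for 10 of 21 and lower for 3 in p53-null liver, and 11 and 3 in Fah-/- liver, among them P4ha2, a prolyl hydroxylase that lets the collagen helix form (1.28 ± 0.19 and 1.39 ± 0.19). Matrix receptors were higher for 6 of 23 and lower for 7 in p53-null liver, and 7 and 6 in Fah-/- liver. Itga6, the laminin-binding integrin chain, rose by 2.36 ± 0.29 and 2.93 ± 0.29, and Sdc4, a syndecan of hepatocytes and other cells, was lower, at -2.54 ± 0.19 and -2.29 ± 0.19. PDGF and contraction genes were higher for 5 of 19 and lower for 4, and for 9 and 3, with Tpm1, a tropomyosin, differing by 2.10 ± 0.13 and 2.19 ± 0.13.

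Markers of cell types moved alongside. Of 14 stellate markers 3 were higher and 2 lower in p53-null, and 4 and 2 in Fah-/- liver, with Lrat, the enzyme that stores vitamin A as esters (1.35 ± 0.25 and 1.09 ± 0.25), among the higher and Gfap, not well above background in any of these 4 groups and so without a level to compare, among the lower. Their mean log2 level was 0.14 to 0.82 in p53-null mice with no NTBC, against 0.48 to 0.76 at full dose. It was 0.13 to 0.56 in Fah-/- mice with no NTBC, against 0.26 to 0.40 at full dose. By this measure the arrays overlapped in both genotypes. By summed level every Fah-/- array with no NTBC, at 108 to 130, lay above all 4 at full dose. The p53-null arrays overlapped by that measure too. Macrophage markers were higher for 12 of 17 and lower for 0 in p53-null, and 15 and 0 in Fah-/- liver, with sums of 130 to 248 in p53-null mice with no NTBC, against 54.4 to 94.4 at full dose, and of 101 to 410 in Fah-/- mice with no NTBC, against 54.9 to 89.4 at full dose. Cholangiocyte markers were higher for 6 of 10 and lower for 0 in p53-null, and 6 and 1 in Fah-/- liver, with medians of 1.12 and 1.22. Endothelial markers were higher for 2 and lower for 6 of 14 in p53-null, and 6 and 2 in Fah-/- liver. Lymphocyte markers were higher for 0 and lower for 8 of 11, and 1 and 4, and portal fibroblast and mesothelial markers were higher for 2 and lower for 6 of 12, and 3 and 5, in p53-null and Fah-/- liver in that order. Only 4 of those 11 lymphocyte markers stood well above background on all 4 p53-null arrays with no NTBC, against 8 at full dose. In Fah-/- mice 8 and 6 did so. Of the portal and mesothelial markers, Gli1 did so on no array of these 4 groups, so both lists hold probes near background. The part of each cell type in the members' changes was not tested.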

How the data were processed

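Per the labels' protocols, 0.1 µg of liver RNA was amplified, labelled with Cy3 and hybridised to Agilent single-colour mouse arrays. The deposited scanner files hold spot intensity values made by Agilent's Feature Extraction software with background subtracted. The headers name its version as 10.7.3.1 while the submitters' processing notes name 10.5, and the array's positions refer to mm9, per the file headers. The authors' deposited value matrix holds log2 values that are quantile normalized, as the columns themselves show, and served as an alternative.

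From the processed signal of each array, 1639 control spots were removed, spots of a probe were averaged, 100 uneven spots were left out, and log2 values were taken minus the array's 75th percentile. A probe was kept if some group had it well above background on each of its 4 arrays, which left 27506 of 41174. Accessions were matched to RefSeq symbols for 28462 probes, and the probe with the highest mean signal stands for a gene. limma 3.58.1 (R 4.3.3, data.table version 1.17.8) fitted 1 mean for each of the 7 groups over 28 arrays, with empirical Bayes variances, 13 comparisons and Benjamini-Hochberg adjustment over 20300 features within each. A feature was called at an adjusted p under 0.05. The fit was tested on simulated data. The number of arrays limits the precision.

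The members, the gene lists and the rule that names genes (all members, and from the other lists those with the largest called changes, a few of which are not reported here) were chosen with earlier results of these data known. Bounds for probes not well above background set the bright group's mean against the higher of the dim probe's signal and the lowest signal above background on each array. Alternatives changed the background correction (normexp with offset 50, on median signals because the files used here hold no mean signal column), scaling, filter, probe choice, arrays entering the fit, and blocks for slide, sex or replicate number.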

Additional observations from a re-analysis of the deposited data

Results flagged for a closer look

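In 12 of 252 groups of 4 arrays, 1 array lay far from the other 3, and chance alone gives about 1 such group in 20. Of the 12, 6 were replicate 1 of the p53-null mice with no NTBC, which was low each time: Col6a3 at -0.48 beside 0.99 to 1.20 in the other 3, Bgn at -0.90 beside 0.12 to 0.18, Dcn at 6.31 beside 6.78 to 6.85, Mmp2 at -1.59 beside -0.90 to -0.77, Mmp13 at -3.59 beside -0.11 to -0.02, and Pdgfrb at 0.10 beside 0.86 to 0.97. That array had the lowest macrophage sum (130) and stellate sum (91.8) of its group, and their part was not tested.

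The other 6 were spread over 5 arrays. Col15a1 was at -3.38 in p53-null full-dose replicate 4, beside -2.02 to -1.85, and Mmp14 at 3.22 in p53-null full-dose replicate 1, beside 2.58 to 2.68. Loxl2 was at 0.04 in p53-null reduced-dose replicate 2, beside -0.92 to -0.77. Sparc was at 3.02 in p21-null replicate 2, beside 3.41 to 3.45. Fah-/- full-dose replicate 3 was low for Mmp2, at -2.54 beside -2.20 to -2.16, and for Lama5, at -2.31 beside -1.86 to -1.79.

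The response to dose differed between genotypes by its own test in limma for 4 values. The Timp3 response was smaller in p53-null than in Fah-/- liver by -1.42 with no NTBC and by -1.11 at the reduced dose, both set against the same full-dose arrays. The Mmp2 response was larger by 1.90 with no NTBC, and the Acta2 response (brightest probe) larger by 0.67 at the reduced dose. For the responses with no NTBC, p53 loss cannot be told apart from sex. For those at the reduced dose, p53 loss cannot be told apart from slide.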

How the results depend on the processing

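Of 111 called values of members, 30 kept their direction and call under every alternative run for them (11 to 15 each) and every array left out in turn, and 10 turned round in some alternative. Normexp correction gave Mmp14 0.12 for p53-null reduced dose, and Tgfb2 -0.17 in p53-null and -0.16 in Fah-/- liver for no against full NTBC. The mean of a gene's probes turned Timp1 (0.46 in p53-null, 0.86 in Fah-/-), Acta2 (-0.79 and -0.46) and Col5a1 (-0.32 in Fah-/-) for no against full NTBC, and Acta2 (-0.43) and Col5a1 (-0.22) for no against reduced NTBC in p53-null liver. The causes were not tested.

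The share of all features called under each alternative, or with an array left out, is not given here. No move of a count is therefore read as particular to the members. Counts of members called moved by over 1.5 times as follows. For reduced against full dose in Fah-/- liver (9) they were 3 with normexp, 20 with the groups compared alone and 4 with a 2-fold minimum, and in p53-null liver (7) 14 with normexp, 3 with the 2-fold minimum and 13 without the 3 farthest arrays. For p53-null against Fah-/- liver they were, at full dose (2), 1 with normexp, 4 with mean probes, 1 with the 2-fold minimum and 4 without the 3 arrays, at reduced dose (2), 0 with normexp, 4 alone, 0 with the 2-fold minimum and 4 without the 3 arrays, and with no NTBC (4), 2 with normexp, 1 alone, 1 with the 2-fold minimum, 0 with slide as a fixed block, within 1 slide or with a term for sex, and 7 without the 3 arrays. For p53-null against p21-null liver (2) they were 1 with normexp, 1 when a probe had to clear background on every array, 0 alone, with slide fixed and within 1 slide, and 7 without the 3 arrays. For p21-null against Fah-/- liver (0), 1 was called without the 3 arrays. The 3 arrays were p53-null replicate 1 and p21-null replicates 1 and 2 with no NTBC. The term for sex gave 7 for no against full (15) and 10 for no against reduced NTBC (22) in p53-null liver, where a 2-fold minimum gave 13. For the difference in response at reduced dose (2) the count was 0 with normexp, 4 alone, and 1 with quantile normalization, the deposited table or the 2-fold minimum. With no NTBC (2) it was 0 with normexp or a term for sex, 4 with mean probes, and 1 with no filter, slide as a random block or the replicate block.

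Leaving out 1 array gave 17 to 23 calls for no against full NTBC in Fah-/- and 14 to 19 in p53-null liver, 7 to 13 and 5 to 9 for reduced against full, and 14 to 30 and 15 to 27 for no against reduced. It gave 1 to 4, 1 to 3 and 0 to 5 for p53-null against Fah-/- liver at full, reduced and no NTBC, 0 to 3 for p21-null against Fah-/-, 1 to 8 for p53-null against p21-null, and 1 to 3 for both differences in response.

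Of 84 same-numbered pairs of samples from different groups, 18 had a correlation over 0.1 (range -0.23 to 0.36). Pairs of unlike number were not correlated, so this cannot tell whether equal replicate numbers pair the samples. The replicate block changed no other count by over 1.5 times. Normexp moved the median of all features by -0.23 (Fah-/-) and -0.27 (p53-null) for no against full NTBC, and by -0.14 and -0.37 for reduced against full. It moved the share of higher among all calls to 30.9% (Fah-/-) and 32.2% (p53-null) for no against full, in place of 41.4% and 42.5%, and to 24.6% in place of 50.9% for p53-null reduced dose. That share became 22.3% in place of 45.5% for p53-null against Fah-/- liver at full dose, 51.4% in place of 62.9% at reduced dose, and 75.6% in place of 65.0% for the difference in response at reduced dose. The deposited table gave 48.6% in place of 37.8% for no against reduced NTBC in p53-null liver. For no against full NTBC quantile normalization and the deposited table moved that share the other way, to 50.3% and 50.2% in Fah-/- and 50.6% and 51.7% in p53-null liver, with the median of all features moved by 0.17 and 0.17, and 0.16 and 0.16. Signal near background leaves only a bound for Mmp12, and for Mmp13 in Fah-/- liver.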
